A study of Homo sapiens with 36 samples.

Results

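Autophagy, the delivery of cytoplasmic cargo to lysosomes in double-membraned vesicles, was followed here through the transcripts of 38 genes that encode its core machinery and its cargo receptors. The genes are a list by name and role, with no measured value in the rule, and all 38 of the 38 were found among the 54583 genes of each count table and passed the filter on low counts. They were read by RNA-seq of polyA RNA in 36 libraries from MDA-MB-231 cells, an established human line of triple-negative breast cancer, so every result is from a single cell line. The cells had received a proteasome inhibitor, SHP1705 or both. SHP1705 stabilizes cryptochrome, a repressor protein of the circadian clock, and was given at 10 µM. MG132, a reversible peptide aldehyde, was given at 100 nM, and carfilzomib, an irreversible epoxyketone, at 10 nM. One set of libraries was made after 8 h with MG132, another after 8 h with carfilzomib and another after 24 h with carfilzomib. Each set held 4 groups of 3 libraries: the inhibitor together with SHP1705 (the combination), the inhibitor alone, SHP1705 alone and DMSO, the solvent that all groups received. Whether the 3 libraries of a group are separate experiments is not said in the labels, so a p-value here measures the spread between libraries, which could be technical.

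When autophagy starts, the ULK kinase complex switches on a lipid kinase complex, which marks the membrane that grows into the autophagosome. Proteins of the ATG8 family (the GABARAP and LC3 proteins) are then coupled to a lipid of that membrane by a ubiquitin-like conjugation system, and receptors such as SQSTM1 link ubiquitinated cargo to them. The proteasome clears ubiquitinated proteins by the other main route, and in many cell lines its inhibition is known to raise transcripts of cargo receptors. TFEB and TFE3 are transcription factors of lysosomal and autophagy genes.

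Levels are CPM, the counts of a gene scaled to a common library size after TMM factors, and a gene was called when its adjusted p in edgeR's quasi-likelihood test was under 0.05. Library totals ran between 34200000 and 39300000 counts in the MG132 set, between 17800000 and 27700000 in the carfilzomib set at 8 h and between 18900000 and 34000000 at 24 h. In the MG132 set and the carfilzomib set at 24 h the clock gene PER3 matched the labels for SHP1705. PER3 does not check the labels of the inhibitors, since it separated only groups with SHP1705 from those without it. In the MG132 set PER3 stood at 4.78, 3.68 and 4.99 CPM in the combination and 4.46 to 5.07 CPM in SHP1705, against 14.2 to 14.5 CPM in MG132 and 13.8 to 14.7 CPM in DMSO. At 24 h it stood at 0.619 to 1.05 CPM in the combination and 0.709 to 1.43 CPM in SHP1705, against 24.2 to 25.3 CPM in carfilzomib and 18.9 to 22.9 CPM in DMSO. Libraries of the carfilzomib set at 8 h went against their labels, so that set is described last and apart. All 5 markers of the line (VIM, CD44, AXL, MSN and CAV1) were at 1 CPM or more in every group, and the hormone receptor genes ESR1 and PGR were near 0. Other genes listed as low or absent in the line were detected. ERBB2 was at 37.6 to 66.7 CPM and EPCAM at 21.6 to 26.3 CPM in the MG132 set. At 24 h ERBB2 was at 77.7 to 95.0 CPM and EPCAM at 13.5 to 18.4 CPM. CDH1 was at most 2.10 CPM in these sets. In these bulk samples, fewer cells of a type and less RNA per cell cannot be told apart.

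GABARAPL1, of the ATG8 family, and the receptor SQSTM1 had the largest changes of the 38 genes in the combinations of the MG132 set and of the carfilzomib set at 24 h, and MAP1LC3B is the ATG8 gene called beside GABARAPL1 in both. The promoter bases around their start sites (250 before and 50 after, RefSeq, GRCh38.p14) are printed because the results turn on these genes. In GABARAPL1 the capitals mark a match to the cyclic AMP response element TGACGTCA, and in MAP1LC3B a match to the antioxidant response element TGACNNNGC. The SQSTM1 window held none of the motifs searched and has no capitals. It surrounds base 179806393 of chromosome 5, the first base of the gene's RefSeq span. Promoters at start sites further into that gene were not searched.
GABARAPL1 promoter, chr12:10212627-10212926, + strand: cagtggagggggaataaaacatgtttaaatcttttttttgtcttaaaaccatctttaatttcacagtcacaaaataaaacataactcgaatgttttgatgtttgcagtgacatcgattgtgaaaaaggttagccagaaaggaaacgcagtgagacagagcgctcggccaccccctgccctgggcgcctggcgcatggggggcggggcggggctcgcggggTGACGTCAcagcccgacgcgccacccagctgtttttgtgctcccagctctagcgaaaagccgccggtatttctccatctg
MAP1LC3B promoter, chr16:87392086-87392385, + strand: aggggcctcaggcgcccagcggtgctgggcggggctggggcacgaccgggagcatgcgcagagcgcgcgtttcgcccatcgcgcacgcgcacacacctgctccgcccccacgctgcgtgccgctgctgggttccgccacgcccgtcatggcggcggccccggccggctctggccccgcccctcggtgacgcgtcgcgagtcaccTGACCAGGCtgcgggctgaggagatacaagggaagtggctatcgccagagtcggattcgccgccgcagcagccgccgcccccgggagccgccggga
SQSTM1 promoter, chr5:179806143-179806442, + strand: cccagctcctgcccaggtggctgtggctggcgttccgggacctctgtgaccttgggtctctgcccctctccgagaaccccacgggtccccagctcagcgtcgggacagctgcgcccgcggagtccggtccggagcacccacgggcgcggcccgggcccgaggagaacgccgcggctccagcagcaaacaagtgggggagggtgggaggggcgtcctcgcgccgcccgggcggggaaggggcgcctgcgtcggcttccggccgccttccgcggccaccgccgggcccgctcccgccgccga

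Promoters of 34 of the 38 genes were found in the RefSeq table and searched on both strands for 5 motifs. All 35116 promoters of the same length were searched beside them. For each of the 34 genes a single window was read, so other start sites were not examined. The heat shock element (GAA, TTC and GAA in blocks 2 bases apart) was in 0 of the 34, against 0.490% of all promoters. The antioxidant response element TGACNNNGC was in 3 (ATG101, MAP1LC3B and CALCOCO2), against 13.3% of all. The E-box CACGTG, which TFEB and TFE3 are known to bind, was in 2 (ATG3 and ATG14), against 7.26% of all. The amino acid response element TGATGNAA was in 0, against 3.62%. The cyclic AMP response element TGACGTCA was in GABARAPL1 alone among the 34, against 1.85% of all, and that motif was added after the GABARAPL1 promoter had been seen. No promoter of the 34 held more than 1 kind of these motifs. That of ATG3 held CACGTG at 2 places, bases -18 to -13 and 6 to 11 from the start site.

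With MG132, the combination had higher transcript levels of most of these genes than DMSO, with GABARAPL1 13.6-fold, SQSTM1 3.57-fold, ULK1 2.94-fold, RB1CC1 2.41-fold and MAP1LC3B 2.15-fold higher. TFEB stood at 0.420 and ATG10 at 0.479 of the DMSO level. Of the 38 genes 20 were called higher, where 29.2% of the 16591 tested genes were, and 9 were called lower, where 29.7% were. The median log2 fold change was 0.19 over the 38 genes and -0.01 over all genes tested, and the median size of the change without its sign was 0.38 against 0.35. Higher calls were thus more frequent than in the background and lower calls somewhat less so, a difference given as a description with no test, and the sizes of change were near those of all genes. The split between directions rested on the scaling. The combination libraries held 38927 to 40611 CPM of HSPA1A, the stress-induced HSP70 chaperone, against 533 to 926 CPM in the other 9 libraries of the set, and scaling by library totals alone moved the median of all genes to -0.31 and that of the 38 genes to -0.11. The calls then split into 13 higher and 18 lower, with 2287 genes higher and 8740 lower over the whole table. Counts by role below belong beside the shares and counts over all genes given here, each under its own scaling. The 7 genes named first in this paragraph kept their direction under that scaling, with GABARAPL1 at a log2 fold change of 3.47, SQSTM1 at 1.53, ULK1 at 1.25, RB1CC1 at 0.97, MAP1LC3B at 0.80, TFEB at -1.55 and ATG10 at -1.36.

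After 24 h of carfilzomib, the combination again had higher GABARAPL1 (3.46-fold) and SQSTM1 (1.89-fold) than DMSO, and ATG4A was 1.68-fold higher. There 17 of the 38 genes were called higher, where 13.0% of 16183 tested genes were, and 1 was called lower, where 14.3% were. The medians were 0.14 over the 38 genes and 0.00 over all. Here library totals alone left the same split of calls in every role, 17 higher and 1 lower. Leaving out 1 of the 6 libraries left 12 to 15 genes called.

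**Figure D1:**
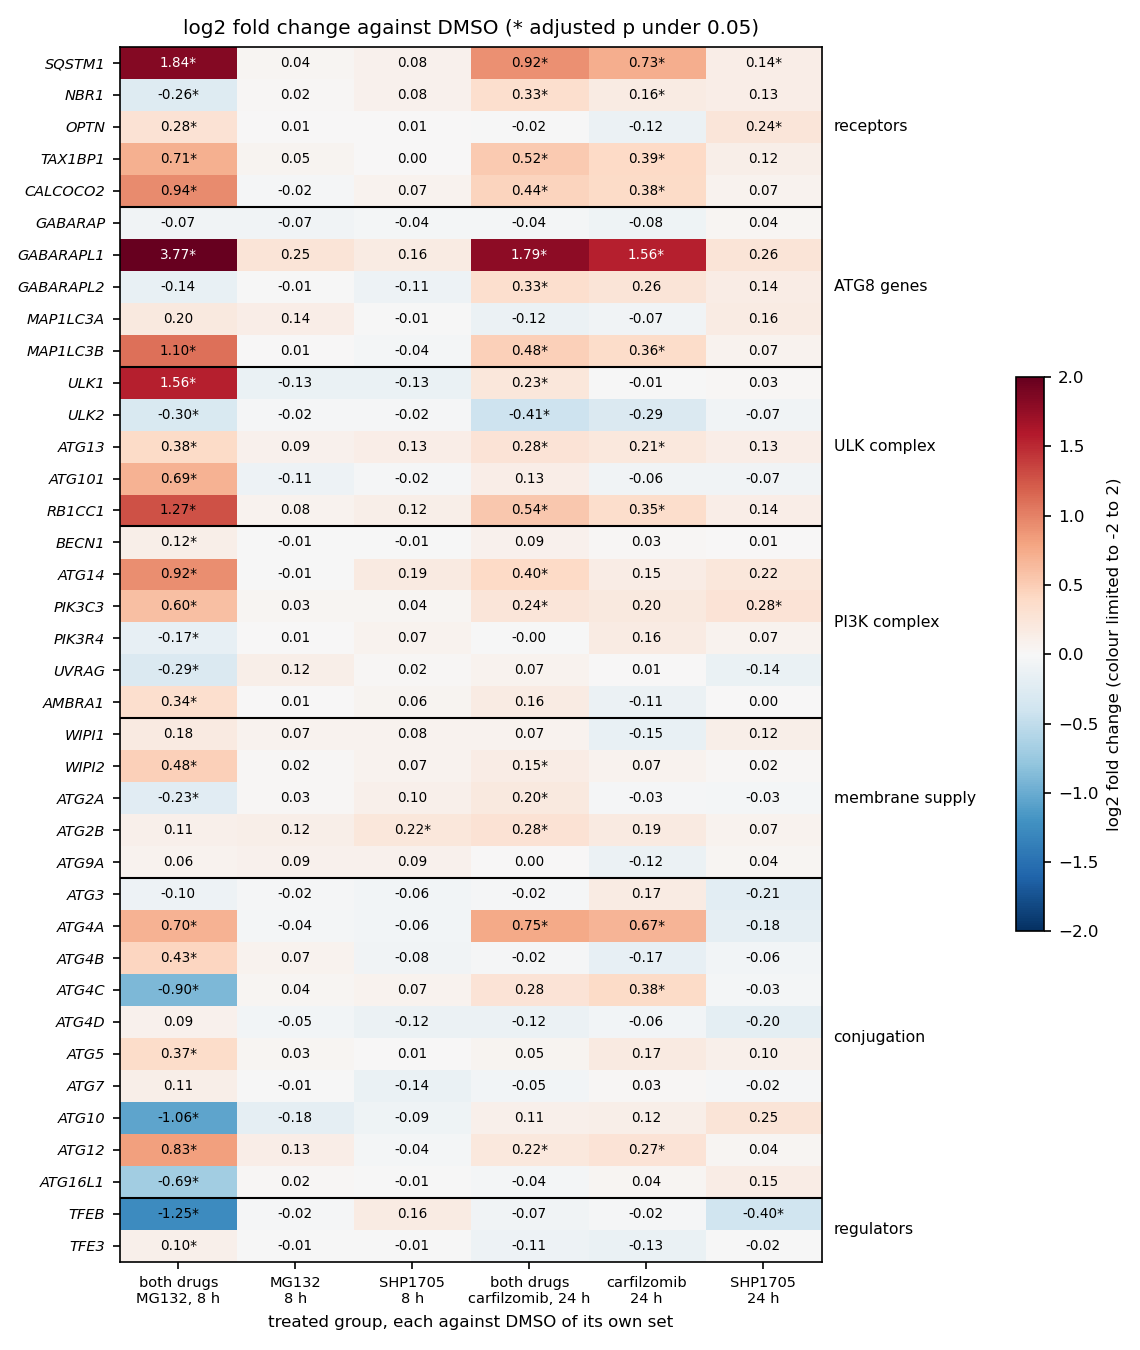
Heat map of log2 fold changes against DMSO for the 38 genes (one line each, grouped by role) under the combination (both drugs), the inhibitor and SHP1705 in the MG132 set and in the carfilzomib set at 24 h; colours are limited to -2 to 2 and a star marks an adjusted p under 0.05. In the MG132 set the stars lie in the combination column, with 29 genes called against 0 under MG132 and 1 under SHP1705, while at 24 h the combination has 18 and carfilzomib alone 11.

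Of the 5 cargo receptors, 4 were higher in the combination than in DMSO in the MG132 set and 1 was lower (3 and 1 with library totals alone). SQSTM1, which binds ubiquitin chains and ATG8 proteins and gathers cargo into condensates, had 1375, 1413 and 1369 CPM in the combination, 393, 395 and 412 CPM in MG132, 401, 412 and 416 CPM in SHP1705 and 377, 393 and 394 CPM in DMSO. The 3 combination libraries stood far above the other 9, among which MG132 overlapped both SHP1705 and DMSO while SHP1705 lay slightly above DMSO. The log2 fold change of the combination against DMSO was 1.84 ± 0.03 (SE, adjusted p 2.17e-20). CALCOCO2, a receptor for invading bacteria and damaged mitochondria, averaged 160 ± 1.24 CPM in the combination and 83.3 ± 3.10 CPM in DMSO (SD, n = 3 each), a log2 fold change of 0.94 ± 0.04. TAX1BP1, a receptor that also recruits the ULK complex to cargo, averaged 434 ± 1.96 CPM in the combination and 265 ± 6.70 CPM in DMSO, a log2 fold change of 0.71 ± 0.03. OPTN, a receptor for damaged mitochondria, was higher by a log2 fold change of 0.28 ± 0.04 (adjusted p 2.87e-06), a call lost with library totals alone (-0.02). NBR1, which acts with SQSTM1 on aggregates, ran the other way, with 116, 122 and 128 CPM in the combination against 142, 149 and 147 CPM in DMSO (log2 fold change -0.26 ± 0.04, adjusted p 5.71e-06). The receptors thus moved unequally: per kilobase of exon they summed to 623 ± 6.07 CPM in the combination and 268 ± 1.89 CPM in DMSO, and SQSTM1 made up 64.0 ± 0.493% of that sum in the combination and 41.6 ± 0.888% in DMSO. Reads of SQSTM1 lie beside those of the overlapping genes MGAT4B and MRNIP, and the strand setting of the counting is not given in the sources used here.

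At 24 h of carfilzomib 4 of the 5 receptors were higher in the combination than in DMSO. SQSTM1 had 901, 848 and 857 CPM in the combination, 779, 779 and 733 CPM in carfilzomib, 503, 509 and 509 CPM in SHP1705 and 467, 453 and 460 CPM in DMSO. No 2 of these 4 groups overlapped, and the combination was the highest. Its log2 fold changes were 0.92 ± 0.04 for the combination against DMSO (adjusted p 8.36e-14) and 0.73 ± 0.04 for carfilzomib against DMSO (adjusted p 5.33e-12). TAX1BP1 had 276, 270 and 258 CPM in the combination and 249, 235 and 252 CPM in carfilzomib, against 191, 180 and 189 CPM in DMSO (log2 fold change of the combination 0.52 ± 0.05, adjusted p 1.18e-08). CALCOCO2 was higher by 0.44 ± 0.05 on the log2 scale, and NBR1, lower in the MG132 set, was higher here by 0.33 ± 0.05 (adjusted p 1.34e-05), with 166, 167 and 161 CPM in the combination and 130, 131 and 131 CPM in DMSO. OPTN was not called under the combination (log2 fold change -0.02, adjusted p 0.872). SQSTM1 made up 59.6% of the receptor sum per kilobase in the combination and 58.5% in carfilzomib, against 49.6% in SHP1705 and 49.7% in DMSO.

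Among the 5 ATG8 genes, whose products decorate the growing membrane and dock receptors on it, 2 rose in the combination of the MG132 set and none fell (2 and 2 with library totals alone). GABARAPL1 had 154, 146 and 146 CPM in the combination, 13.4, 12.9 and 12.6 CPM in MG132, 11.8, 12.5 and 12.2 CPM in SHP1705 and 11.6, 11.8 and 9.23 CPM in DMSO. The lowest combination library was above every other library by more than the whole spread of the rest, and the log2 fold change against DMSO was 3.77 ± 0.06 (adjusted p 1e-19). MAP1LC3B, which encodes the LC3 protein used to count autophagosomes, had 125, 137 and 144 CPM in the combination, 65.0, 58.4 and 66.9 CPM in MG132, 59.6, 62.6 and 61.0 CPM in SHP1705 and 66.4, 57.9 and 64.3 CPM in DMSO (log2 fold change 1.10 ± 0.06, adjusted p 2.88e-12). Its combination libraries did not overlap the rest either. MAP1LC3B has a near-identical copy, MAP1LC3B2, which was higher by 1.02 ± 0.21, so its reads may be split between both and its value is uncertain. GABARAP, per kilobase of exon the highest ATG8 gene in DMSO, had 130, 134 and 130 CPM in the combination and 135, 139 and 140 CPM in DMSO (log2 fold change -0.07 ± 0.03, adjusted p 0.0856), and GABARAPL2 and MAP1LC3A were not called either (-0.14 and 0.20).

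**Figure D2:**
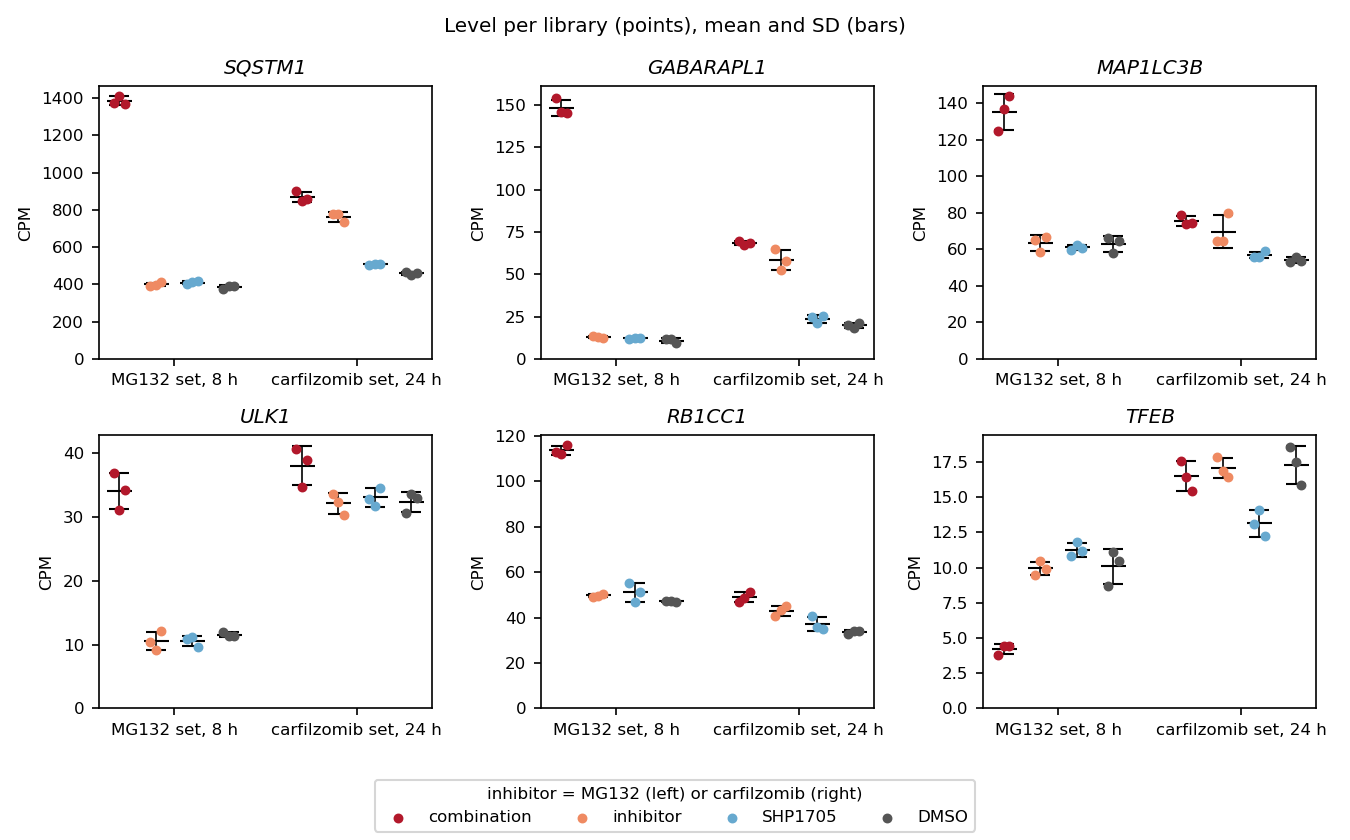
CPM in each library (points), with mean and SD over 3 libraries, for SQSTM1, GABARAPL1, MAP1LC3B, ULK1, RB1CC1 and TFEB in the MG132 set and in the carfilzomib set at 24 h, from the combination (both drugs) at the left to DMSO at the right. In the MG132 set the combination stands alone, above the other groups for the first 5 genes and below them for TFEB; at 24 h SQSTM1 and GABARAPL1 are high in both the combination and carfilzomib.

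At 24 h GABARAPL1 had 69.9, 67.4 and 68.6 CPM in the combination, 64.8, 52.7 and 58.2 CPM in carfilzomib, 24.7, 21.1 and 25.3 CPM in SHP1705 and 19.9, 18.4 and 21.3 CPM in DMSO. The groups with carfilzomib did not overlap those without it, and SHP1705 overlapped DMSO. The log2 fold changes against DMSO were 1.79 ± 0.08 for the combination (adjusted p 1.93e-13) and 1.56 ± 0.08 for carfilzomib (adjusted p 3.43e-12). MAP1LC3B had 78.9, 73.8 and 74.2 CPM in the combination, 64.3, 64.6 and 79.9 CPM in carfilzomib, 55.6, 56.0 and 58.9 CPM in SHP1705 and 52.9, 55.7 and 53.8 CPM in DMSO (log2 fold change of the combination 0.48 ± 0.07, adjusted p 1.62e-05). The third carfilzomib library was the highest of all 12. GABARAPL2 was called higher in the combination as well (0.33 ± 0.10, adjusted p 0.0135), and GABARAP was not, with 143, 131 and 151 CPM in the combination and 145, 144 and 148 CPM in DMSO (-0.04 ± 0.06).

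Read per kilobase of exon, which allows levels of different genes to be compared, GABARAPL1 ranked 31 of the 38 genes in DMSO of the MG132 set, at 3.64 CPM per kilobase, and at 49.7 in the combination. GABARAP, the third highest of the 38 in DMSO, was at 58.0 CPM per kilobase in the combination and 60.9 in DMSO. SQSTM1 was the highest of the 38 in DMSO, with 399 CPM per kilobase in the combination and 112 in DMSO, and ATG10 the lowest, with 0.419 and 0.876. In the summed level of the 5 ATG8 genes per kilobase, GABARAPL1 took 29.2 ± 1.08% in the combination, against 4.25 ± 0.167% in MG132, 4.04 ± 0.184% in SHP1705 and 3.49 ± 0.466% in DMSO. GABARAP took 34.1% in the combination against 58.5% in DMSO, and MAP1LC3B 26.3% against 20.0%, while the sum was 170 ± 1.04 against 104 ± 0.969 CPM per kilobase. At 24 h GABARAPL1 took 17.2 ± 0.742% in the combination and 15.6 ± 1.71% in carfilzomib, against 6.93 ± 0.462% in SHP1705 and 6.13 ± 0.371% in DMSO, and the sum was 134 CPM per kilobase in the combination, 126 in carfilzomib, 114 in SHP1705 and 108 in DMSO. These shares do not depend on the scaling between libraries. Exon lengths came from GENCODE v29, which may differ from the annotation used for counting.

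**Figure D3:**
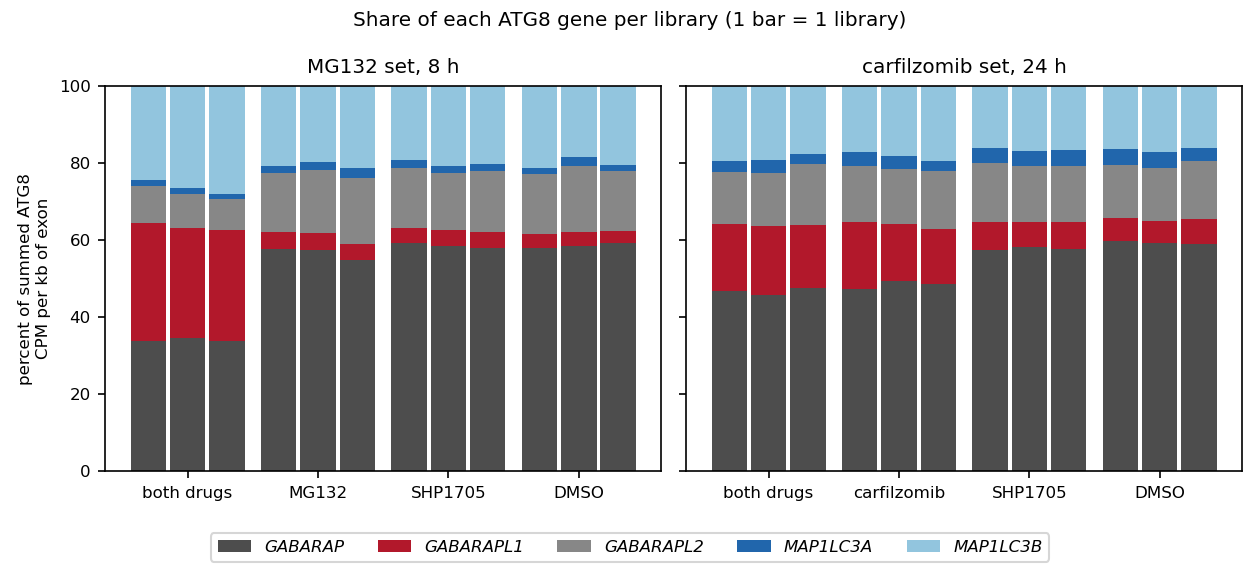
Share in percent of each of the 5 ATG8 genes in their summed CPM per kilobase of exon, stacked for each library of the MG132 set and of the carfilzomib set at 24 h, with the combination marked as both drugs. GABARAPL1 takes 29.2% in the combination of the MG132 set against 3.49% in DMSO, and 17.2% in the combination and 15.6% in carfilzomib at 24 h against 6.13% in DMSO.

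All 5 genes of the ULK complex, the kinase complex that starts autophagosome formation, changed in the combination of the MG132 set, 4 higher and 1 lower (3 and 1 with library totals alone, where ATG13 was at 0.08). ULK1, the kinase, had 37.0, 31.2 and 34.2 CPM in the combination, 10.4, 9.24 and 12.1 CPM in MG132, 10.9, 11.2 and 9.63 CPM in SHP1705 and 12, 11.4 and 11.4 CPM in DMSO (log2 fold change 1.56 ± 0.08, adjusted p 4.98e-12). RB1CC1, the scaffold also known as FIP200, had 113, 112 and 116 CPM in the combination, 49.1, 49.7 and 50.5 CPM in MG132, 55.3, 46.9 and 51.1 CPM in SHP1705 and 47.2, 47.5 and 46.9 CPM in DMSO (1.27 ± 0.05, adjusted p 1.4e-14). Both combination groups stood clear of the other 9 libraries. ATG101 and ATG13, the subunits that bridge kinase and scaffold, were higher by 0.69 ± 0.05 and 0.38 ± 0.05. The second kinase gene, ULK2, was lower, with 10.4, 12.2 and 12.3 CPM in the combination and 14.4, 13.8 and 14.8 CPM in DMSO (-0.30 ± 0.08, adjusted p 0.00355). So the paralogous kinase genes ran in opposite directions, also with library totals alone (ULK1 1.25, ULK2 -0.61). At 24 h the combination had higher RB1CC1, with 47.0, 48.9 and 51.2 CPM against 32.9, 34.2 and 34.1 CPM in DMSO (0.54 ± 0.07, adjusted p 2.75e-06), and higher ATG13 (0.28 ± 0.07). ULK2 was lower there too, with 11.5, 11.1 and 10.4 CPM against 15, 13.9 and 15.2 CPM in DMSO (-0.41 ± 0.11, adjusted p 0.00521). ULK1 had 40.7, 34.7 and 38.9 CPM in the combination and 30.7, 33.6 and 33.1 CPM in DMSO at 24 h (0.23 ± 0.07, adjusted p 0.0208), a call lost in 3 of the 6 fits without 1 library (0.18 to 0.30).

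The 6 genes of the class III PI3-kinase complex, which makes the lipid mark of the early membrane, split into 4 higher and 2 lower in the combination of the MG132 set (2 and 3 with library totals alone, where BECN1 turned to -0.18). ATG14, the subunit that brings the kinase to autophagosome formation sites, had 43.0, 43.5 and 46.5 CPM in the combination, 23.0, 23.8 and 22.9 CPM in MG132, 26.9, 28.7 and 24.2 CPM in SHP1705 and 23.2, 24.5 and 22.4 CPM in DMSO (log2 fold change 0.92 ± 0.06, adjusted p 4.21e-11). PIK3C3, the lipid kinase itself, averaged 91.1 ± 1.21 CPM in the combination and 60.0 ± 2.82 CPM in DMSO (0.60 ± 0.04, adjusted p 5.92e-10). No combination library of either gene overlapped another group. AMBRA1, a regulator of the complex, was higher by 0.34 ± 0.06 (0.03 and no call with library totals alone). BECN1, the scaffold subunit known as Beclin, was higher by 0.12 ± 0.04 (adjusted p 0.0154), a call lost in 3 of the 6 fits without 1 library. UVRAG, which takes the place of ATG14 in the endosomal form of the complex, was lower by a log2 fold change of -0.29 ± 0.06 (adjusted p 0.00048), with 14.7, 16.8 and 15.5 CPM in the combination against 18.6, 19.6 and 19.2 CPM in DMSO. The regulatory subunit PIK3R4 was at -0.17 ± 0.06 (adjusted p 0.0190). At 24 h ATG14 was higher in the combination, with 27.3, 28.1 and 29.5 CPM against 19.5, 22.4 and 22.4 CPM in DMSO (0.40 ± 0.08, adjusted p 0.000421), and PIK3C3 by 0.24 (adjusted p 0.0164, lost in 2 of the 6 fits without 1 library). The other 4 were not called.

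Of 5 genes for membrane supply, 1 was higher and 1 lower in the combination of the MG132 set, against the background shares of 29.2% and 29.7% given above. With library totals alone 1 was higher and 3 lower, where far more of all genes were lower than higher. WIPI2, which reads the lipid mark and recruits the conjugation machinery, had 95.3, 99.3 and 98.4 CPM in the combination against 69.1, 69.0 and 71.8 CPM in DMSO (log2 fold change 0.48 ± 0.04, adjusted p 9.21e-10). ATG2A, a lipid transfer protein, had 50.3, 45.5 and 52.5 CPM in the combination against 57.9, 56.7 and 59.9 CPM in DMSO (-0.23 ± 0.05, adjusted p 0.000782). WIPI1, ATG2B and ATG9A, the membrane scramblase, were at 0.18, 0.11 and 0.06 and not called. At 24 h 3 were called higher, ATG2B (0.28), ATG2A (0.20) and WIPI2 (0.15). The calls of ATG2A and WIPI2 were lost in all 6 fits without 1 library and that of ATG2B in 3.

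The 10 genes of the conjugation system split in the combination of the MG132 set into 4 higher, 3 lower and 3 with no call (2 higher and 6 lower with library totals alone). ATG12, the ubiquitin-like protein that is joined to ATG5, had 60.2, 57.1 and 56.8 CPM in the combination, 36.6, 33.9 and 36.9 CPM in MG132, 31.4, 31.0 and 33.2 CPM in SHP1705 and 33.4, 32.0 and 32.8 CPM in DMSO (log2 fold change 0.83 ± 0.05, adjusted p 7.21e-12). Its partner ATG5 was higher by 0.37 ± 0.05 (0.07 and no call with library totals alone). ATG16L1, which binds the joined pair and places it on the membrane, was lower, with 13.6, 13.8 and 12.7 CPM in the combination against 22, 20.9 and 21.9 CPM in DMSO (-0.69 ± 0.07, adjusted p 6.38e-08). ATG10, the enzyme that transfers ATG12 to ATG5, had 1.85, 1.74 and 1.98 CPM in the combination, 2.49, 3.86 and 3.97 CPM in MG132, 3.96, 3.33 and 3.65 CPM in SHP1705 and 3.90, 4.14 and 3.62 CPM in DMSO (-1.06 ± 0.18, adjusted p 3.42e-05). Transcripts of the step that joins ATG12 to ATG5 and places the pair thus held calls in both directions. So did all genes tested, with 29.2% higher and 29.7% lower, and the split is not read as a trait of the step. RPS23 overlaps the span of ATG10 on the opposite strand, and AP3S1 that of ATG12, and whether their exons overlap was not examined.

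The 4 ATG4 genes encode the proteases that prime ATG8 proteins and release them from lipid. ATG4A had 19.1, 21.7 and 20.5 CPM in the combination against 13.6, 11.3 and 12.9 CPM in DMSO in the MG132 set (log2 fold change 0.70 ± 0.08, adjusted p 2.12e-07), and ATG4B was higher by 0.43 ± 0.07 (0.13 and no call with library totals alone). ATG4C went the other way, with 10.5, 11.3 and 10.1 CPM in the combination against 21.1, 20.1 and 18.2 CPM in DMSO (-0.90 ± 0.07, adjusted p 5.02e-10). ATG4D was not called, nor were ATG7, the activating enzyme of both conjugation systems (0.11), and ATG3, the enzyme that transfers ATG8 proteins to lipid (-0.10). With library totals alone these 3 were called lower (ATG3 -0.41, ATG4D -0.21 and ATG7 -0.19). At 24 h ATG4A had 16.8, 18.7 and 18.2 CPM in the combination, 15.1, 18.1 and 17.6 CPM in carfilzomib, 10.8, 7.38 and 9.99 CPM in SHP1705 and 11.8, 9.20 and 11 CPM in DMSO. Both groups with carfilzomib stood above both groups without it (0.75 ± 0.13 for the combination, adjusted p 7.95e-05). ATG12 was called at 24 h too (0.22), but in none of the 6 fits without 1 library. ATG10, lower in the MG132 set, had 2.36, 5.35 and 3.81 CPM in the combination at 24 h and 2.73, 3.37 and 4.65 CPM in DMSO, groups that overlapped (0.11 ± 0.27).

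The regulators TFEB and TFE3 moved apart in the MG132 set. TFEB had 3.79, 4.46 and 4.42 CPM in the combination, 9.48, 10.4 and 9.93 CPM in MG132, 10.8, 11.8 and 11.2 CPM in SHP1705 and 8.68, 11.1 and 10.4 CPM in DMSO (log2 fold change -1.25 ± 0.10, adjusted p 3.33e-09). TFE3 had 117, 121 and 120 CPM in the combination and 111, 111 and 112 CPM in DMSO (0.10 ± 0.03, adjusted p 0.0113), a call lost in 3 of the 6 fits without 1 library and turned to -0.20 with library totals alone. At 24 h neither was called under the combination (-0.07 and -0.11). There TFEB fell with SHP1705 alone, with 13.1, 14.1 and 12.2 CPM against 18.5, 17.5 and 15.9 CPM in DMSO (-0.40 ± 0.10, adjusted p 0.0141), a call lost in 3 of the 6 fits without 1 library (-0.45 to -0.35). In the combination TFEB stood at 17.6, 16.5 and 15.5 CPM and in carfilzomib at 17.8, 16.9 and 16.5 CPM, both overlapping DMSO.

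Either agent alone gave at most 1 call among the 38 genes in the MG132 set. MG132 alone against DMSO gave 0 calls among them and 0 among all 16591 genes in edgeR's test. At an unadjusted p under 0.05 there were 4 of the 38 and 1574 of all, and DESeq2 called 0 of the 38 and 75 of all. GABARAPL1 was at a log2 fold change of 0.25 ± 0.07 (95% interval 0.10 to 0.41, adjusted p 0.235) and SQSTM1 at 0.04 ± 0.03 (adjusted p 0.666). SHP1705 alone called ATG2B, where 3.45% of genes were higher and 4.08% lower, with 24.0, 24.2 and 22.8 CPM in SHP1705 against 19.6, 21.9 and 19.5 CPM in DMSO (0.22 ± 0.06, adjusted p 0.0183). That call was lost without SHP1705 replicate 1 or 2 or without DMSO replicate 1 or 3. The combination against MG132 alone gave 20 higher, where 28.2% of all genes were, and 9 lower, where 28.9% were. With library totals alone it gave 13 and 19, and the median of all genes was -0.32. Shares of all genes under that scaling are not given here, so that split is not read as a result about the 38 genes. With TMM factors GABARAPL1 was at 3.52 ± 0.06 and SQSTM1 at 1.79 ± 0.03 against MG132 alone.

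The interaction term is the combination minus the sum of the effects of both single agents on the log2 scale. In the MG132 set it was called for 31 of the 38 genes, 22 above and 9 below additivity, where 24.7% and 24.2% of all genes were. With library totals alone the calls were 12 and 18, and the median of all genes was -0.34. Shares of all genes under that scaling are not given here, so that split is not read as a result about the 38 genes. With TMM factors the term was 3.35 ± 0.10 for GABARAPL1 (adjusted p 1.08e-15), 1.71 ± 0.04 for SQSTM1 (adjusted p 2.51e-17), 1.82 ± 0.13 for ULK1, 1.13 ± 0.08 for MAP1LC3B, 1.08 ± 0.07 for RB1CC1 and -1.39 ± 0.14 for TFEB. For GABARAPL1, SQSTM1 and RB1CC1 the term was somewhat smaller than the effect of the combination against DMSO, and for ULK1, MAP1LC3B and TFEB it was slightly larger in size.

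POSTN and CDKN2A, transcripts that are low or absent in DMSO, were found in all 3 combination libraries of the MG132 set and in some libraries of the single agents. Both varied between libraries of a group, and MG132 replicate 3 exceeded combination replicate 1 in both. POSTN, a fibroblast gene, was at 98.3, 222 and 242 CPM in the combination, 33.6, 0.161 and 173 CPM in MG132, 0.267, 28.2 and 29.4 CPM in SHP1705 and at most 0.255 CPM in DMSO. CDKN2A, which is deleted in this line, was at 3.08, 6.85 and 7.58 CPM in the combination, 0.578, 0.107 and 5.04 CPM in MG132, 0.0971, 0.761 and 0.751 CPM in SHP1705 and at most 0.0276 CPM in DMSO. All 10 markers of the fibroblast list had counts in every group, none at 0, and their sum was 127 to 283 CPM in the combination, 18.0 to 205 CPM in MG132, 17.9 to 55.4 CPM in SHP1705 and 18.2 to 19.7 CPM in DMSO. POSTN made up most of that sum in the combination. CDH2 was above its DMSO level too, with 6.53, 16.7 and 15.7 CPM in the combination, 11.7 CPM in MG132 replicate 3 and 1.55, 1.21 and 0.995 CPM in DMSO. COL1A1 had 7.93, 10.9 and 11.4 CPM in the combination and 5.68, 5.16 and 4.70 CPM in DMSO. PDGFRA had 0.342, 0.775 and 1.08 CPM against 0.306, 0.0828 and 0.111 CPM. COL1A2 had 7.62, 7.24 and 7.13 CPM in the combination and 6.65, 7.92 and 8.13 CPM in DMSO, which overlapped. DCN (at most 0.171 CPM) and THY1 (at most 0.0902 CPM) were near 0 in the combination. Part of the list thus moved with POSTN and part did not, and the presence of other cells was not tested. MG132 replicate 3, with POSTN at 173 CPM, had 12.6 CPM of GABARAPL1 and 412 CPM of SQSTM1, and replicate 2, with POSTN at 0.161 CPM, had 12.9 and 395 CPM. Among the combination libraries, replicate 1, lowest in POSTN at 98.3 CPM, had 154 CPM of GABARAPL1 and 1375 CPM of SQSTM1. All 3 combination libraries held POSTN and no DMSO library did beyond 0.255 CPM, so the part of these transcripts in the combination's effects cannot be told apart from the treatment by leaving out libraries. The 4 libraries outside the combination with more than 100 POSTN counts (MG132 1 and 3, SHP1705 2 and 3) belong to neither the combination nor DMSO, and without them 28 genes were called in the combination against DMSO, BECN1 (0.11) no longer. At 24 h the same sum was 23.2 to 24.0 CPM in the combination, 19.0 to 25.6 in carfilzomib, 21.4 to 23.6 in SHP1705 and 19.2 to 20.2 in DMSO.

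At 24 h carfilzomib alone was enough for 11 calls among the 38 genes, all higher, where 10.1% of all genes were higher and 11.4% lower. Besides SQSTM1, GABARAPL1, ATG4A, TAX1BP1, CALCOCO2 and MAP1LC3B, these were RB1CC1 (0.35), ATG4C (0.38), ATG12 (0.27), ATG13 (0.21) and NBR1 (0.16). The call of ATG13 was lost in 4 of the 6 fits without 1 library and that of ATG12 in 2. Without DMSO replicate 1 the count was 7. SHP1705 alone gave 3 higher and 1 lower, where 1.95% and 2.51% of all genes were: OPTN (0.24 ± 0.05, adjusted p 0.00533), PIK3C3 (0.28 ± 0.07, adjusted p 0.0247), SQSTM1 (0.14 ± 0.04, adjusted p 0.0471) and TFEB. OPTN had 173, 175 and 174 CPM in SHP1705 and 145, 142 and 155 CPM in DMSO, which did not overlap, while 148, 144 and 144 CPM in the combination did. The calls of SQSTM1 and PIK3C3 were lost in each of the 6 fits without 1 library. The count was 2, 3 and 1 without SHP1705 replicate 1, 2 and 3, and 1, 0 and 2 without DMSO replicate 1, 2 and 3.

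The combination at 24 h exceeded carfilzomib alone for 6 of the 38 genes and was below it for 0, where 4.36% of all genes were higher and 4.67% lower. These were AMBRA1 (0.27), ULK1 (0.25), ATG14 (0.25), ATG2A (0.23), SQSTM1 (0.19 ± 0.04, adjusted p 0.00444) and NBR1 (0.18). SQSTM1 kept its call in all 6 fits without 1 library, while the count of calls was 1, 3 and 1 without combination replicate 1, 2 and 3 and 6, 4 and 5 without carfilzomib replicate 1, 2 and 3. GABARAPL1 was at 0.23 ± 0.08 (adjusted p 0.0547). The interaction term was called for 0 of the 38 genes in edgeR's test, where 0.210% of all genes were above and 0.272% below. At an unadjusted p under 0.05 there were 7 of the 38 and 2202 of all 16183 genes, and DESeq2 called 0 of the 38. It was -0.03 ± 0.12 for GABARAPL1 (95% interval -0.27 to 0.21) and 0.04 ± 0.06 for SQSTM1 (95% interval -0.07 to 0.16).

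The inhibitors differed in dose and in time, so the combinations are set side by side and not compared. Of the 38 genes 13 were higher against DMSO in both sets, which is 65% of the genes higher with MG132 and 76.5% of those higher with carfilzomib at 24 h. Of the 15613 genes tested in both sets 7.51% were higher in both, which is 25.5% of those higher with MG132 and 56.3% of those higher with carfilzomib. ULK2 was lower in both. Higher with MG132 and not called with carfilzomib were 7 genes, lower with MG132 and not called with carfilzomib 6. NBR1 and ATG2A were lower with MG132 and higher with carfilzomib, and GABARAPL2 and ATG2B were called, as higher, with carfilzomib. The remaining 7 were called in neither set. Across the 38 genes, which are not independent replicates, Pearson's r of the log2 fold changes was 0.78, and 0.50 without SQSTM1 and GABARAPL1. Apart from the genes higher in both sets, no value over all genes is given beside these counts or r. They are therefore not read as traits of the 38 genes.

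**Figure D4:**
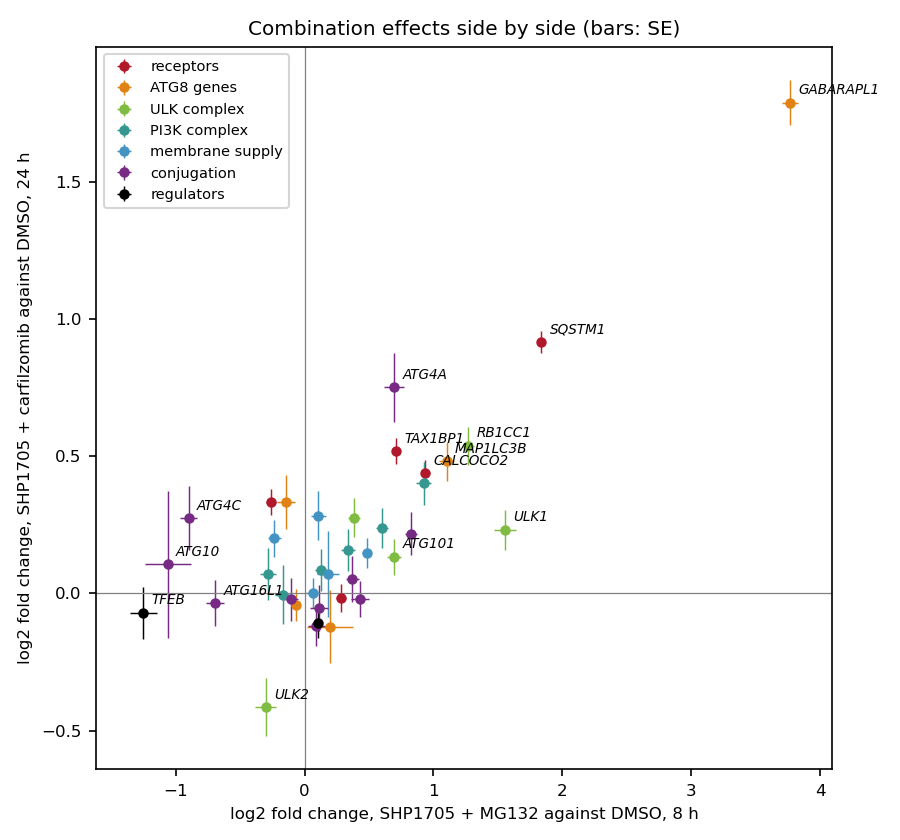
Log2 fold change of the combination against DMSO in the MG132 set at 8 h (horizontal axis) and in the carfilzomib set at 24 h (vertical axis) for the 38 genes, coloured by role, with standard errors as bars. GABARAPL1 (3.77 and 1.79) and SQSTM1 (1.84 and 0.92) lie farthest from the origin, and TFEB (-1.25 and -0.07) and ATG10 (-1.06 and 0.11) are low on the horizontal axis alone.

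Genes around this core were read from 4 further lists. The background was 29.2% higher and 29.7% lower in the combination of the MG132 set and 13.0% and 14.3% at 24 h, all with TMM factors. With library totals alone far more of all genes were lower than higher in the MG132 set, as given above. Counts under that scaling are therefore not read against these shares. With MG132, 11 of 18 other receptors were higher than in DMSO and 3 lower, but 1 was higher and 10 lower with library totals alone. CALCOCO1 (0.53) kept its call and the endoplasmic reticulum receptor TEX264 (-0.53) stayed lower, while TOLLIP (0.31) and RTN3 (0.26), another receptor there, lost theirs (0.01 and -0.05). Of 9 other ATG8 and core genes tested 7 were higher and 0 lower (3 and 1 with library totals alone). The smallest p-values were those of TMEM41B (0.99) and VMP1 (0.91), lipid scramblases of the endoplasmic reticulum, which kept their calls, and of WDR45B (0.32) and SH3GLB1 (0.26), which did not (0.02 and -0.04). Of 14 fusion genes 6 were higher and 6 lower (2 and 9 with library totals alone), with the SNARE genes YKT6 at 0.83 and VAMP8 at -0.36, the small GTPase gene RAB7A at 0.48 and the tethering gene PLEKHM1 at 0.30, the last not called with library totals. Of 24 upstream regulators 14 were higher and 3 lower (10 and 7 with library totals alone). They included SESN2, a stress-induced inhibitor of the growth kinase mTORC1, at 2.75 ± 0.07, TBK1, the kinase that phosphorylates OPTN and SQSTM1, at 0.86, DDIT4 at 0.79 and RHEB, an activator of mTORC1, at 0.58, and these 4 kept their calls. At 24 h the same lists gave 5 higher and 0 lower of 18 (CCPG1 0.57, BCL2L13 0.54, CALCOCO1 0.50 and RTN3 0.36), 1 and 2 of 11 (VMP1 0.66, WDR45B -0.15, ATG16L2 -0.60), 3 and 1 of 14 (PLEKHM1 0.30, YKT6 0.27, EPG5 0.18, VAMP8 -0.14) and 2 and 2 of 23 (DDIT4 0.57, TSC1 0.24, FLCN -0.23, MLST8 -0.35). With library totals alone WDR45B and VAMP8 were not called there (-0.13 and -0.12).

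In the carfilzomib set at 8 h, libraries went against their labels, and each is therefore called the library labelled so. HSPA1A was at 12019.5 and 15052 CPM in the libraries labelled combination 2 and 3, 19856 CPM in that labelled SHP1705 1 and 14559, 23605 and 23242 CPM in those labelled DMSO 1 to 3. It was at 693 to 896 CPM in the libraries labelled combination 1, carfilzomib 1 to 3 and SHP1705 2 and 3. The clock gene PER3 was at 1.26 to 2.25 CPM in the libraries labelled combination 1, carfilzomib 2 and 3, SHP1705 1 and DMSO 2 and 3, and at 6.78 to 9.62 CPM in the rest. No library was given another group.

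Several of the autophagy genes were high or low in the same libraries as HSPA1A. SQSTM1 had 400, 1276 and 1363 CPM in the libraries labelled combination, 467, 391 and 384 CPM in those labelled carfilzomib, 1431, 428 and 436 CPM in those labelled SHP1705 and 1240, 1625 and 1556 CPM in those labelled DMSO. GABARAPL1 had 27.3, 166 and 176 CPM in those labelled combination, 28.3, 24.9 and 20.8 CPM in those labelled carfilzomib, 229, 25.2 and 27.0 CPM in those labelled SHP1705 and 171, 293 and 267 CPM in those labelled DMSO. The 6 libraries highest in SQSTM1 and in GABARAPL1 were the 6 highest in HSPA1A. MAP1LC3B, ULK1 and RB1CC1 were higher in the same 6 libraries: MAP1LC3B had 66.0, 125 and 125 CPM in the libraries labelled combination, 82.7, 68.7 and 68.7 CPM in those labelled carfilzomib, 203, 77.4 and 79.9 CPM in those labelled SHP1705 and 125, 190 and 197 CPM in those labelled DMSO. TFEB was lowest in them, with 5.37, 3.61 and 3.77 CPM in the libraries labelled combination, 7.35, 5.30 and 6.85 CPM in those labelled carfilzomib, 2.63, 7.86 and 6.38 CPM in those labelled SHP1705 and 4.07, 3.57 and 2.90 CPM in those labelled DMSO. GABARAP (105 to 141 CPM over the 12 libraries), NBR1 (105 to 133 CPM) and UVRAG (25.6 to 30.3 CPM) did not separate them. CDKN2A had 2.28, 1.84 and 2.48 CPM in the libraries labelled combination and 0.471, 0.126 and 0.797 CPM in those labelled DMSO. The liver gene ALB had 3.85 CPM in the library labelled combination 3 and 4.56 CPM in that labelled SHP1705 1, with APOB at 1.45 and 1.56 CPM there, and ALB was at most 0.141 CPM in the other 10. The part of such transcripts was not tested.

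**Figure D5:**
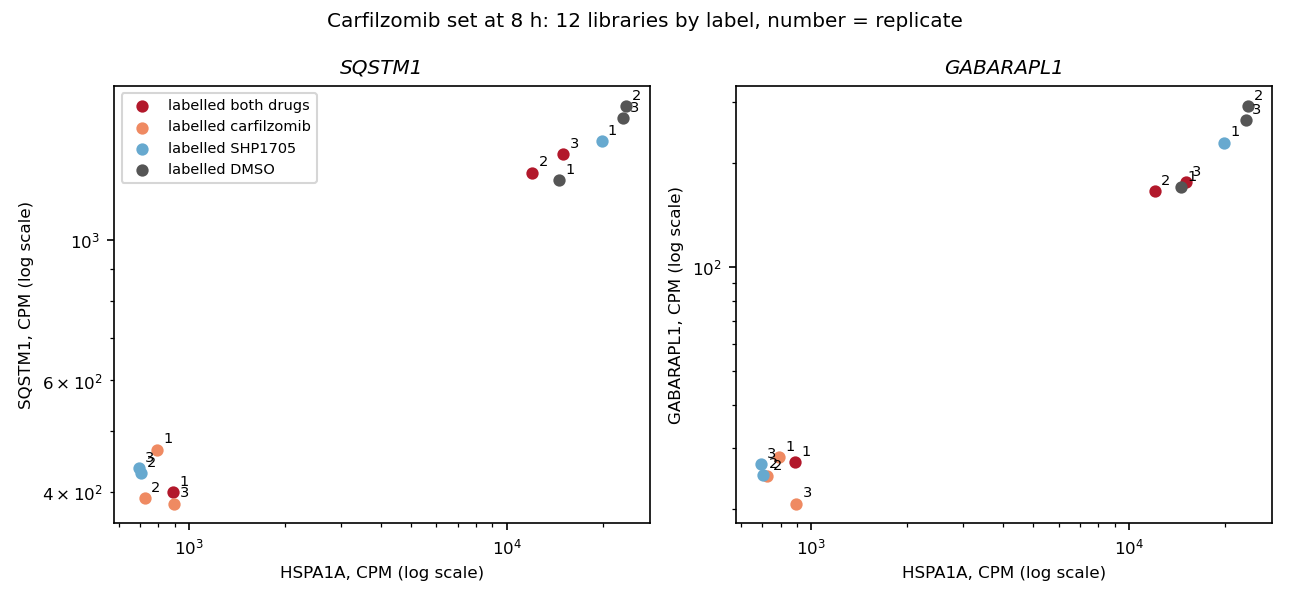
CPM of SQSTM1 and GABARAPL1 against CPM of HSPA1A (logarithmic axes) in the 12 libraries of the carfilzomib set at 8 h, coloured by their label (the combination as both drugs). The 6 libraries with the most HSPA1A (12019.5 CPM or more), labelled combination 2 and 3, SHP1705 1 and DMSO 1 to 3, are also the 6 with the most SQSTM1 and GABARAPL1.

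With the groups as labelled, the libraries labelled carfilzomib differed from those labelled DMSO in 13 of the 38 genes, 1 higher (ATG10, 0.69) and 12 lower, where 11.7% of 15577 genes were higher and 11.3% lower. SQSTM1 was at a log2 fold change of -1.83 ± 0.48 and GABARAPL1 at -3.30 ± 0.84 (adjusted p 0.0400), the opposite direction to 24 h. Leaving out 1 library left 0 calls, except for 12 without the library labelled DMSO 1. In edgeR's test the combination, SHP1705, the combination against carfilzomib and the interaction gave 0 calls each. At an unadjusted p under 0.05 there were 2, 4, 4 and 12 of the 38 genes in that order. Of all 15577 genes there were 1454, 2244, 898 and 3951. DESeq2 gave 0, 0, 0 and 0 calls among the 38 for these comparisons. Without the libraries labelled SHP1705 1 and combination 1, the counts were 0 for the combination, 21 for carfilzomib (2 higher and 19 lower), 22 for SHP1705 (3 and 19), 14 for the combination against carfilzomib (13 and 1) and 22 for the interaction (19 and 3). Shares of all genes called without these libraries are not given here, so the counts are not read as a result about the autophagy genes. Set against 24 h in 1 fit of all 36 libraries, the effect as labelled differed (24 h minus 8 h) for 16 of the 38 genes under the combination, 15 positive, where 9.72% of 17389 genes were, and 1 negative, where 10.7% were. Under carfilzomib it differed for 21, 18 positive and 3 negative, where 20.0% of genes were positive and 20.0% negative. Under SHP1705 it differed for 2, where 1.29% of genes were positive and 1.65% negative. That fit shared its estimate of variation among sets of unequal spread, so its calls can understate the spread at 8 h. All these values describe the libraries as labelled and are no measure of the drugs.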

How the data were processed

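The authors deposited 3 tables of raw read counts per gene. The submitters' processing notes name Trimmomatic, FastQC, HISAT2, featureCounts and the build hg38. Their versions, the annotation and the strand setting are not given there, and overlapping genes may share reads. Groups came from the labels, and 0 columns went unused. The genes and lists were chosen with earlier results of these data known. Each table was fitted whole (12 libraries, 4 groups) with filterByExpr, TMM factors and the quasi-likelihood F-test of edgeR 4.0.16 (limma 3.58.1, R 4.3.3, prior count 0.125), and Benjamini-Hochberg adjustment ran over all genes tested. The method was tested on simulated counts. Differences between 24 h and 8 h used 1 fit of 36 libraries. Levels by library are given for genes called with a 2-fold change in a combination, though not for every group of every set. They are also given for some of the highest and most changed genes of each role. Others of these (ATG13, ATG101, BECN1, PIK3C3, ATG4B and ATG5) are given as means or log2 fold changes alone. Further genes are shown for comparison. From each of the 4 further lists up to 4 genes were named by p. Alternatives were other size factors, no filter, a block for the replicate number, DESeq2 1.42.0, fits of the compared groups, and leaving out each library; fits with library totals and without doubted libraries were added after the data were seen. Every pair of replicates differed by more than counting noise. Positions and promoters are RefSeq, GRCh38.p14. Figures used matplotlib 3.10.9.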

Additional observations from a re-analysis of the deposited data

Results flagged for a closer look

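The effects in the carfilzomib set differed between 24 h and 8 h, tested in 1 fit of all 36 libraries with the groups as labelled (24 h minus 8 h). For the combination against DMSO the difference was called for 16 of the 38 genes, 15 positive and 1 negative. Of all 17389 genes tested 9.72% were positive and 10.7% negative there. For carfilzomib against DMSO it was called for 21, 18 positive and 3 negative, where 20.0% of all genes were positive and 20.0% negative. For SHP1705 against DMSO it was called for 2, OPTN (0.49) and TFEB (-1.10), where 1.29% of all genes were positive and 1.65% negative. GABARAPL1 differed by 2.79 ± 0.72 on the log2 scale (SE) under the combination and by 4.87 ± 0.75 under carfilzomib (adjusted p 2.13e-05). SQSTM1 differed by 1.47 ± 0.42 under the combination and by 2.57 ± 0.42 under carfilzomib (adjusted p 4.77e-05). Libraries of the set at 8 h went against their labels in HSPA1A and PER3, so these differences compare libraries as labelled, and time cannot be told apart from that discrepancy. The fit estimated the variation of each gene from all 36 libraries together, those of the MG132 set included. In separate fits the variation within groups was 0.172 at 8 h, against 0.0672 at 24 h and 0.0455 in the MG132 set. The SEs, p-values and calls of the differences can therefore understate the spread at 8 h.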

How the results depend on the processing

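Library totals alone turned the direction of BECN1 (-0.18), ATG2B (-0.20) and TFE3 (-0.20) in the combination against DMSO of the MG132 set, of GABARAP (-0.31), ATG13 (-0.019), BECN1 (-0.18) and TFE3 (-0.20) against MG132, and of GABARAP (-0.29), ATG13 (-0.17), BECN1 (-0.19), ATG5 (-0.0080) and TFE3 (-0.21) in the interaction. In the carfilzomib set at 8 h, leaving out the libraries labelled SHP1705 1 and combination 1 turned ATG2B under SHP1705 to -0.30. Counts of calls that moved by more than 1.5 times were as follows. MG132 alone gave 1 with no filter, and SHP1705 alone in the same set gave 2 with no filter, 3 with DESeq2, 3 with library totals and 0 without the 4 libraries with POSTN, a fit that leaves SHP1705 with 1 library assumed to vary like the other groups. At 8 h with no filter, the combination gave 5, SHP1705 8, the combination against carfilzomib 5 and the interaction 14; without the 2 libraries they gave 0, 22, 14 and 22, and carfilzomib gave 21, as it did with only the groups compared. At 24 h the combination against carfilzomib gave 1 with only the groups compared. The SHP1705 difference of 24 h and 8 h gave 4 with DESeq2.

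Leaving out 1 library in turn gave 27 to 30 calls in the MG132 set for the combination, 28 to 30 against MG132, 26 to 29 for the interaction, 0 to 0 for MG132 and 0 to 2 for SHP1705. At 24 h it gave 12 to 15 for the combination, 1 to 6 against carfilzomib, 0 to 1 for the interaction, 7 to 13 for carfilzomib and 0 to 3 for SHP1705. At 8 h it gave 0 to 0 for the combination and against carfilzomib, 0 to 19 for the interaction, 0 to 12 for carfilzomib and 0 to 19 for SHP1705.

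The replicate numbers did not pair the libraries: deviations of libraries with the same number correlated above 0.1 in 1 of 18 pairs in the MG132 set, 1 at 8 h and 0 at 24 h, and 5, 0 and 5 of 12 libraries correlated best with their own number. With the replicate number as a block the counts for the combination, the inhibitor, SHP1705, the combination against the inhibitor and the interaction were 29, 0, 1, 29 and 30 in the MG132 set and 18, 14, 4, 7 and 0 at 24 h, and 0 for each at 8 h. The fitted variation within groups was 0.0455 in the MG132 set, 0.0672 at 24 h and 0.172 at 8 h, so the last could show large changes alone.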
